A study of Sus scrofa with 61 samples.

Results

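Expression in the longissimus muscle of crossbred pig fetuses was compared with the mid-parent value, the mean of the purebred groups, at day 90 of gestation. The comparison took the 32 fetuses sampled on that day, of 61 in the series, with 8 fetuses in each of 4 genotypes. LW fetuses were purebred Large White (LW sow and LW boar), and MS fetuses were purebred Meishan (MS sow and MS boar). LWMS fetuses had an MS sow and an LW boar, and MSLW fetuses had an LW sow and an MS boar. No fetus was treated, and the other 29 fetuses were sampled at day 110. According to the study, the fetuses were all male. According to the study's methods, sows were inseminated with a mixture of semen of both breeds, so that littermates of an LW sow could be LW or MSLW and those of an MS sow MS or LWMS. The sow of each fetus is not in the sample labels. Littermates were therefore counted as separate fetuses, and the p-values below measure the spread between fetuses.

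The first cross of a pair of breeds carries 1 copy of an autosomal gene from each. When both parental alleles act independently, its transcript level is expected at the average of the parents (additive expression). This does not cover X-linked genes, which according to the study came only from the sow in these male fetuses. Expression is called dominant when the cross lies closer to one parent, and out of range (overdominant or underdominant) when it lies above or below both. In the mean of the reciprocal crosses, the breed of the sow is balanced, so that a difference which depends only on the side a breed entered from contributes equally to the crosses and to the parents. The mid-parent value also depends on the scale. The mean of log2 values is below the log2 of the arithmetic mean whenever the parents differ, and the gap grows with the parental difference.

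RNA of each fetus was hybridized alone to a 1-colour oligonucleotide array, and values are log2 of the background-corrected signal after quantile normalization. Of 60305 probes that are not controls, 41316 were tested, namely those that in 1 or more of the 4 genotypes were measured well above background in 80% or more of the fetuses. Of these, 32753 were well above background on all 32 arrays. Per array, 34346 to 45683 probes were well above background. Muscle was the tissue seen on the arrays: all 7 tested markers of muscle fibres were well above background on every array, and their summed level ranged from 20.91 to 21.22 (log2) over the 32 fetuses. The first principal component (18.3% of the variance) placed the crosses, from -7.10 to 9.50, between LW (40.9 to 52.8) and MS (-53.5 to -32.8). MSLW fetus 2 stood apart on the second component (13.8% of the variance) at 146.0, whereas the other 31 fetuses lay between -23.5 and 12.1. This array had 752 spots marked as non-uniform and 36831 probes well above background. Neither count was the most extreme, as LW fetus 8 had 802 such spots and MS fetus 3 had 34346 probes well above background. Why MSLW fetus 2 stood apart was not tested. This fetus was kept, and counts without it are given for the breed difference, the deviation of the crosses and the intermediate class.

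Named results rest on single 60-base probes, and some genes past the threshold were represented by probes that share sequence. The sequences of 4 such genes are printed to show which probes measured separate stretches of a transcript. Capitals mark the longest stretch that the 2 called probes of a gene have in common. Both MTFP1 probes carry the same 60 bases, as do both PARVB probes, so that each pair repeats 1 measurement. The IYD probes share 45 bases, whereas the ENPEP probes share no more than 7.
MTFP1, both probes: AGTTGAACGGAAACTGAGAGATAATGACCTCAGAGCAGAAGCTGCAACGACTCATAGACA
PARVB, both probes: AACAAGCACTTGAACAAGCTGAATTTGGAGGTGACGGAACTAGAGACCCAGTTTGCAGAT
IYD, first probe: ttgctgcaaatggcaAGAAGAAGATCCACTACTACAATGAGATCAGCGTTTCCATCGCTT
IYD, second probe: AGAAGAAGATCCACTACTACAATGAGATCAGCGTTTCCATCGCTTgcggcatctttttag
ENPEP, first probe: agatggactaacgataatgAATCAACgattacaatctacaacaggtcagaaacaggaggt
ENPEP, second probe: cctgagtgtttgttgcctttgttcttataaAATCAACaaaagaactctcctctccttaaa

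On the log2 scale, 29 probes (0.0702% of those tested) differed between the crosses and the mid-parent value at 1% (limma, Benjamini-Hochberg over all tested probes). In every one of them the crosses were above the mid-parent value, and no probe was below it. At an unadjusted p under 0.05 there were 1383 probes above and 468 below. The 29 probes stood for 12 named genes (18 probes) and 11 probes without a gene symbol, and held 27 different sequences. Without MSLW fetus 2, 34 probes passed, and with the slide as a block 27 did (0.0653%), of which 24 were the same. All 29 probes belonged to the 6124 (14.8%) that differed between MS and LW at 1%, a count of 6716 without MSLW fetus 2. They were among those with wide parental differences. The absolute difference between LW and MS had a median of 3.60 in the 29 probes (0.89 to 8.01), compared with 0.62 over all probes with different parents. LW was the higher parent in 21 and MS in 8. The deviation from the mid-parent value had a median of 1.06 and ranged from 0.39 to 3.06.

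**Figure D1:**
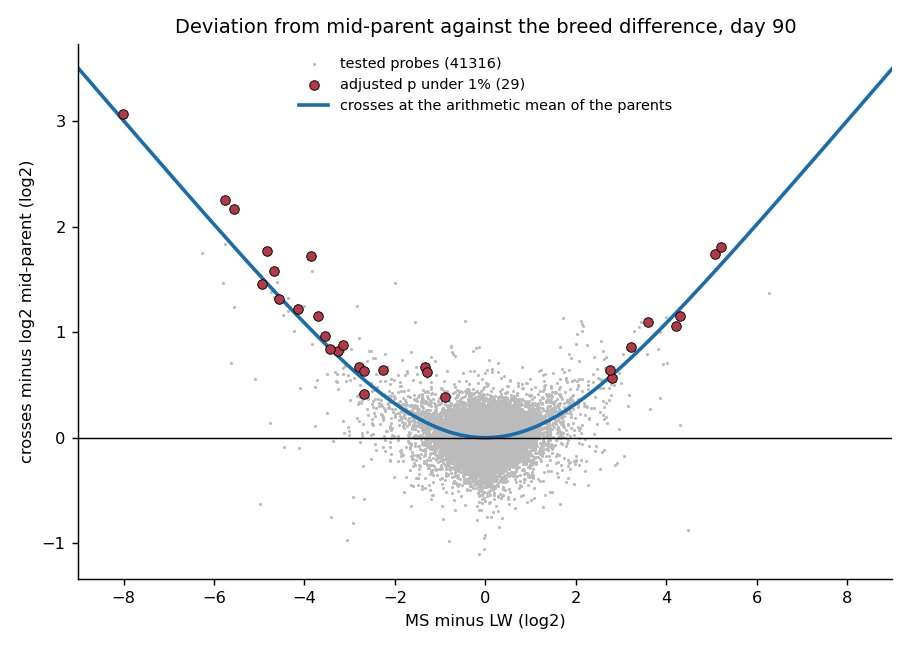
Deviation of the crosses from the log2 mid-parent value (y axis, log2) against the difference MS minus LW (x axis, log2) for 41316 probes at day 90, 8 fetuses per genotype. Red points are the 29 probes past 1%, and the blue line is where a cross at the arithmetic mean of the parents would lie. Most red points lie near the line, while those of MTFP1, PARVB, TMOD3, MARC2 and CYYR1 lie above it. The deviations run from 0.39 to 3.06.

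Most of the 29 probes were near the arithmetic mean of the parents. Expressed as a percentage of the signal of the higher parent, the crosses had a median level of 59.5% (48.5% to 100.5%), and 23 of the 29 lay between 45% and 65%. The 95% interval of this level held 50% for 18 probes and excluded 100% for 25. The crosses overlapped with the fetuses of the higher parent in 20 probes and with those of the lower parent in 2. Against the log2 of the arithmetic mean of the parental levels, the median deviation was 0.10 (-0.14 to 0.70). The interval of that deviation held 0 for 22 of the 29 probes and lay above 0 for 7, namely both probes of MTFP1, both of PARVB and the probes of TMOD3, MARC2 and CYYR1. Over all 41316 probes, none differed from the arithmetic mid-parent value at 1% in limma, although 1546 had an unadjusted p under 0.05.

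**Figure D2:**
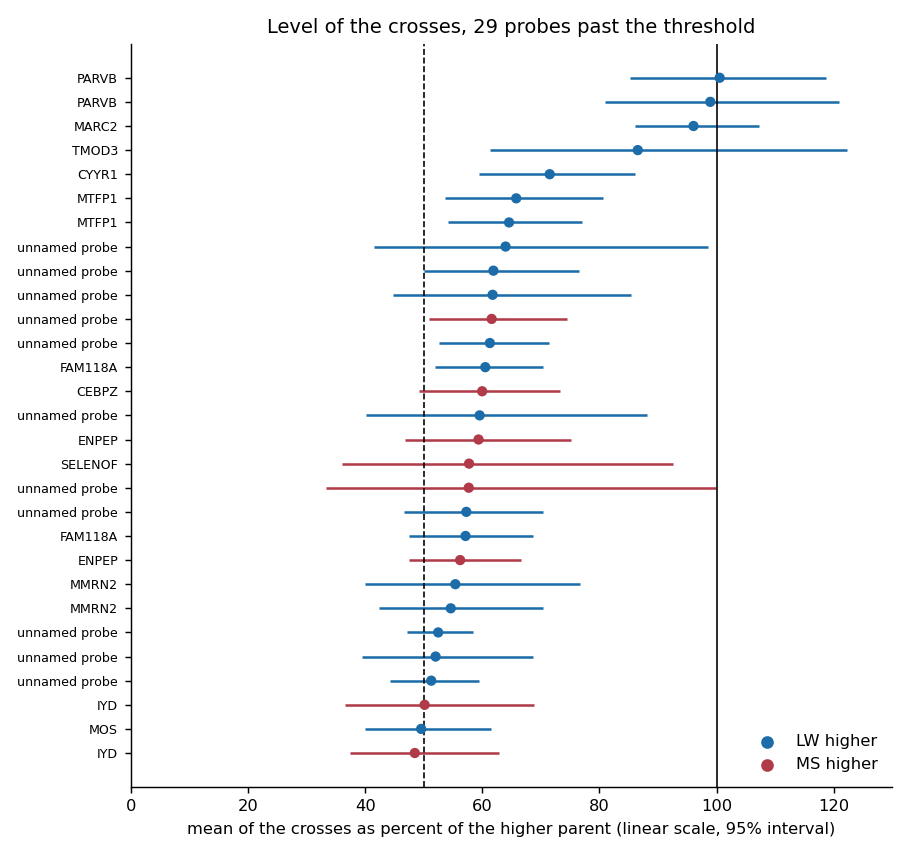
Mean signal of the 16 crossbred fetuses as a percentage of the higher parent (x axis, linear scale) for the 29 probes past 1%, with 95% intervals. Blue is LW higher and red is MS higher, the dashed line is 50% and the solid line is 100%. All probes but those of PARVB, MARC2 and TMOD3 are below 72%.

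MTFP1, which encodes a protein of the inner mitochondrial membrane that takes part in mitochondrial fission, showed the largest deviation among named genes. Its first probe ranged from 7.49 to 8.06 in LW (median 7.75), from 6.77 to 7.98 in LWMS (median 7.22) and from 6.33 to 7.21 in MSLW (median 7.03). In MS it was well above background on 0 of 8 arrays, with values from 1.65 to 2.45 (median 1.85). All 16 crossbred fetuses were above every MS fetus, and 15 of 16 were below every LW fetus. LW was at least 14.9-fold higher than MS, and the crosses were at 64.6% of LW (95% interval 54.2% to 77.0%). The deviation from the mid-parent value was 2.25 ± 0.10 (SE, adjusted p = 7.42e-16 in limma) with the measured MS values and 1.32 with MS at the detection limit.

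Other genes with LW as the higher parent included MOS, a kinase known for its part in oocyte maturation. MOS was well above background on no MS array, and its values there ran from 1.80 to 3.58 (median 2.39). In LW it ranged from 7.08 to 7.67 (median 7.57), in LWMS from 6.15 to 6.61 (median 6.41) and in MSLW from 6.04 to 6.81 (median 6.51). Every cross was below every LW fetus and above every MS fetus, at 49.6% of LW (40.0% to 61.5%). The deviation was 1.46 ± 0.12 (SE, adjusted p = 5.63e-09 in limma), or 0.82 with MS at the detection limit.

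MMRN2, an extracellular matrix protein of blood vessels, was called by 2 probes with almost no common sequence. With the first, LW ranged from 10.23 to 10.48 (median 10.34) and MS from 5.96 to 6.69 (median 6.16), a 17.8-fold difference. LWMS ranged from 9.34 to 9.97 (median 9.68) and MSLW from 6.76 to 10.12 (median 9.51), so that the crosses overlapped with neither parent. MSLW fetus 6 was the lowest, far from the other 7, and its slide gave a deviation below 0. The deviation was 1.22 for the first probe and 0.84 for the second (adjusted p = 0.000667 and 0.00426 in limma), and the crosses were at 55.4% and 54.6% of LW. In all 3 other tested probes of MMRN2 the parents differed in the same direction and the deviations were from 0.17 to 1.84, but none passed 1%. FAM118A was 9.56-fold higher in LW than in MS on one probe and 6.91-fold on a second, overlapping one. Its deviations of 0.82 and 0.67 left the crosses at 57.1% and 60.5% of LW.

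CYYR1 was 4.78-fold higher in LW, and its crosses reached 71.5% of LW (59.4% to 86.1%), with a deviation of 0.64. The other 2 tested probes of CYYR1 did not differ between the breeds at 1%, with differences MS minus LW of -0.54 and -0.27.

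Among genes with MS as the higher parent, IYD, the deiodinase that recovers iodide from iodotyrosines, was well above background on no LW array. Its second probe ranged from 1.58 to 2.44 in LW (median 1.95) and from 5.19 to 7.08 in MS (median 6.32). In LWMS it ranged from 4.54 to 6.10 (median 5.15) and in MSLW from 4.50 to 6.33 (median 5.26). All crosses were above every LW fetus, and 8 of 16 were below every MS fetus. The deviation was 1.15 ± 0.18 (SE, adjusted p = 0.00109 in limma), but only 0.37 with LW at the detection limit, and the crosses were at 50.2% of MS. The third IYD probe had a parental difference of 3.57 and a deviation of 0.80, and missed 1%.

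ENPEP, an aminopeptidase that cleaves angiotensin, was called by 2 separate stretches of its transcript. The brighter probe ranged from 8.01 to 9.08 in LW (median 8.58) and from 11.21 to 11.54 in MS (median 11.28). LWMS ranged from 10.18 to 11.04 (median 10.71) and MSLW from 9.81 to 10.82 (median 10.35), with no overlap with either parent. The deviations of the 2 called probes were 0.86 and 0.56 (adjusted p = 0.00109 and 0.00426 in limma), with the crosses at 59.4% and 56.2% of MS. The other 2 tested ENPEP probes had the same parental direction and deviations of 0.50 and 0.57, and passed 1% when MSLW fetus 2 was left out.

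SELENOF, a selenoprotein of the endoplasmic reticulum, was called by 1 of its 6 tested probes. On that probe LW varied widely, from 3.71 to 8.49 (median 5.20), whereas MS lay between 10.15 and 10.61 (median 10.36). LWMS ranged from 9.03 to 9.85 (median 9.50) and MSLW from 9.18 to 10.28 (median 9.59), above all LW fetuses. The deviation was 1.74 ± 0.27 (SE, adjusted p = 0.0009 in limma) and the crosses were at 57.7% of MS. On the other 5 SELENOF probes the parents differed by -0.21 to 0.17 and the deviations were between -0.00 and 0.04. CEBPZ, a CCAAT-binding factor, had the same pattern. Its called probe was 6.74-fold higher in MS with a deviation of 0.64, and its other 2 probes showed parental differences of -0.05 and 0.08. For SELENOF and CEBPZ the breed difference was thus a property of 1 probe. A change in the transcript level of the gene cannot be told apart from a change in the sequence under the probe. The same limit holds for CYYR1, whose other 2 tested probes did not differ between the breeds at 1%. It also holds for MTFP1, MOS, TMOD3, FAM118A, PARVB and MARC2, for which no probe besides the called ones was tested.

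For 3 of the 12 named genes, all with LW as the higher parent, the 95% interval of the crosses held 100% of that parent. PARVB, an actin-binding protein of focal adhesions, ranged on its more significant probe from 5.82 to 6.76 in LW (median 6.22) and from 4.61 to 5.39 in MS (median 4.83). LWMS ranged from 5.78 to 6.55 (median 6.35) and MSLW from 5.93 to 6.59 (median 6.20). All crosses were above every MS fetus, and 1 of 16 was below every LW fetus. The crosses were at 100.5% of LW (85.2% to 118.6%), with deviations of 0.67 and 0.63 on the 2 identical probes (adjusted p = 0.000199 and 0.00948 in limma). Against the arithmetic mid-parent value the deviations were 0.52 and 0.49 (adjusted p = 0.152 and 0.779 in limma). Under the alternatives other than that value, the first probe kept its call in 19 of 19 and the second in 6 of 20.

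MARC2, a molybdenum enzyme of the mitochondrial outer membrane, had the smallest deviation of all called probes. LW ranged from 10.79 to 11.19 (median 10.93) and MS from 9.86 to 10.29 (median 9.99). LWMS ranged from 10.69 to 11.41 (median 11.02) and MSLW from 10.58 to 10.89 (median 10.74), so that the crosses overlapped with LW and not with MS. The deviation was 0.39 ± 0.06 (SE, adjusted p = 0.00163 in limma), and the level was 96.0% of LW (86.0% to 107.2%). Against the arithmetic mid-parent value the deviation was 0.32 (adjusted p = 0.175).

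TMOD3, which caps the pointed ends of actin filaments, was the only one of the 29 probes in which the reciprocal crosses differed. The array held 1 other TMOD3 probe, which was not among those tested. LW ranged from 7.87 to 9.52 (median 8.06) and MS from 3.79 to 4.93 (median 4.42). LWMS reached 9.48 (median 9.22, lowest 7.19), and MSLW ranged from 7.10 to 8.20 (median 7.27). The deviation was 1.72 ± 0.20 (SE, adjusted p = 5.95e-06 in limma), and the difference MSLW minus LWMS was -1.41 (adjusted p = 0.0047). In LWMS, 6 fetuses were above 9 and 2 near the MSLW level, and the mean of both crosses, 86.5% of LW (61.3% to 122.2%), therefore describes neither cross.

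**Figure D3:**
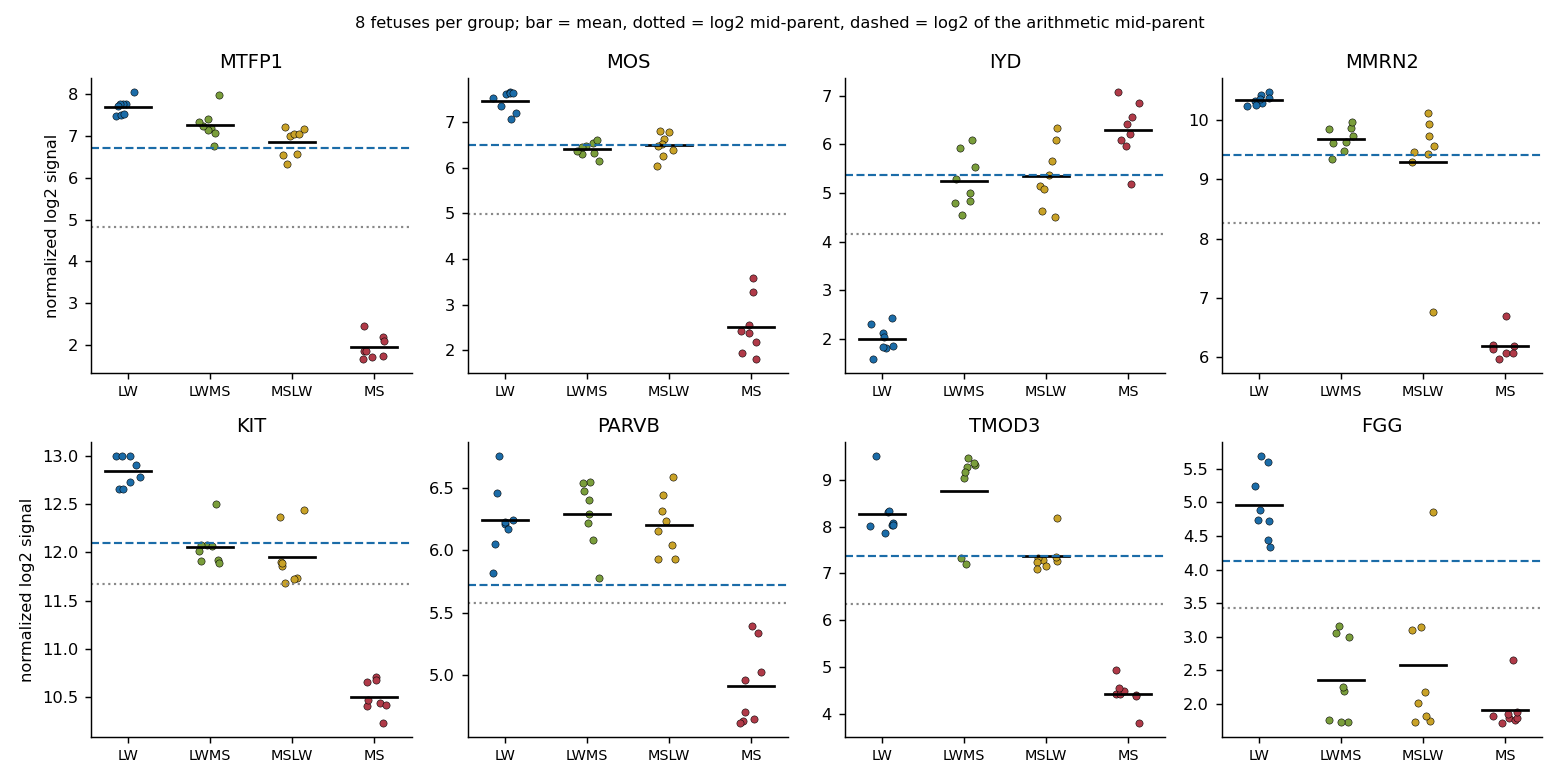
Normalized log2 signal (y axis) of each of the 8 fetuses per genotype (LW, LWMS, MSLW and MS from left to right) for 8 genes. Bars are group means, the dotted line is the log2 mid-parent value and the dashed line the log2 of the arithmetic mid-parent value. The crosses of MOS, IYD and KIT sit at the dashed line, those of PARVB at the LW level, and those of FGG near MS apart from MSLW fetus 2 at 4.86.

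The 11 unnamed probes behaved like the named ones. The largest deviation of all, 3.06, belonged to an unnamed probe not well above background on any MS array, which was at least 73.7-fold higher in LW. Its crosses were at 52.0% of LW (39.4% to 68.7%), and its deviation was 2.16 with MS at the detection limit. In all, 8 of the 29 probes had a lower parent that was well above background on 0 arrays, 10 on part of the arrays and 11 on all arrays of both breeds. For the first 8, the deviation depends on the value taken for the undetected breed and ranged from -0.11 to 2.16 when this was the detection limit.

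Within slides, each of which held 1 fetus of each genotype, the deviation was above 0 on all 8 slides in 26 of the 29 probes and on 7 slides in the other 3. Both crosses were above the mid-parent value in all 29 probes. The 29 were chosen for their deviation in these same fetuses, so the signs over slides and crosses are no independent support. Taken alone, LWMS differed from the mid-parent value in 76 probes (0.184%), of which 38 were above, and 23 of these 76 were among the 29. MSLW did so in 91 probes (0.22%), of which 83 were above and 19 were among the 29. Without MSLW fetus 2 the counts were 93 for LWMS, of which 48 were above, and 82 for MSLW, of which 70 were above. The crosses share the parental groups in these comparisons. The crosses differed from each other in 231 probes (0.559%). In 192 of these the parents also differed, and the order of the crosses followed the breed of the sow in 174 and that of the boar in 18.

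Probes just outside the threshold had the same sign. DYNLL2, a dynein light chain, had a deviation of 0.27 (adjusted p = 0.0108 in limma) and BCAS2, a splicing factor, of 1.26 (adjusted p = 0.0152).

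No probe was called below the mid-parent value. Of the named genes with the lowest unadjusted p in that direction, all of which missed the threshold, FGG had the largest deviation. FGG, the gamma chain of fibrinogen, was well above background on all 8 LW arrays and on no other array of day 90. LW ranged from 4.33 to 5.69 (median 4.81) and MS from 1.71 to 2.65 (median 1.80). LWMS ranged from 1.72 to 3.15 (median 2.22) and MSLW from 1.72 to 4.86 (median 2.09). All crosses but MSLW fetus 2 were below every LW fetus, and LW was at least 2.23-fold higher than MS. The deviation of the measured values was -0.97 ± 0.24 (SE, adjusted p = 0.166 in limma), and without MSLW fetus 2, which gave the highest of the cross values, it was -1.13 (adjusted p = 0.00148). MS and both crosses have only an upper bound for FGG, so that these deviations rest on values not well above background, and no level relative to LW is given.

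DLK1, a paternally expressed regulator of muscle growth, was below both parents on its brightest probe. LW ranged from 13.70 to 14.50 (median 14.08) and MS from 13.57 to 14.85 (median 14.11), whereas LWMS ranged from 12.54 to 14.27 (median 13.12) and MSLW from 13.20 to 14.36 (median 13.79). The groups overlapped, and the deviation of -0.55 ± 0.15 had an adjusted p of 0.405 (limma). The other 5 probes of DLK1 gave deviations of -0.09 to -0.06. The remaining 3 genes were CHRM1, a muscarinic acetylcholine receptor (-0.38), NFE2, a factor of red cell and platelet precursors (-0.51), and GPNMB, a membrane glycoprotein (-0.25), with adjusted p from 0.55 to 0.586.

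No probe was out of the parental range in both comparisons at 1%. The smallest p for being above or below both parents was 0.00228 (adjusted p = 1 in limma), and 50 probes had an unadjusted p under 0.05, with 32 above both parents and 18 below. By point estimate the crosses lay beyond both parents in 38.2% of all probes, by over 0.25 in 482 and by over 0.5 in 42. Where the parents differed at 1%, this was so in 55 of 6124 probes (0.898%). The named gene with the lowest p was PTGR2, a prostaglandin reductase. LW ranged from 10.12 to 10.39 (median 10.27) and MS from 10.08 to 10.39 (median 10.22), whereas LWMS ranged from 10.23 to 10.79 (median 10.67) and MSLW from 10.25 to 10.56 (median 10.39). The groups overlapped, and the crosses lay 0.21 above the nearer parent. The deviation of PTGR2 from the mid-parent value was 0.24 ± 0.05. Its adjusted p of 0.0516 (limma) belongs to that deviation and not to the out-of-range test. Further above the nearer parent, with a higher out-of-range p, were RAB3A, a GTPase of secretory vesicles (by 0.29), and NSD3, a histone methyltransferase (by 0.48). So were ACSL1, which activates long-chain fatty acids (by 0.30), and ANGPT1, a ligand of the endothelial receptor TEK (by 0.30). Their deviations from the mid-parent value were 0.32, 0.50, 0.35 and 0.33, with adjusted p for that deviation from 0.215 to 0.573 (limma). NSD3 was well above background on only 5 of 8 arrays in each of LW, MS and MSLW.

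The precision of the comparison limits what a missed threshold means. The standard error of the deviation had a median of 0.09 over probes, and its 95% interval lay within ±0.5 for 88.7% of the probes and within ±1 for 98.8%.

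Additive expression was tested as equivalence, where the mean of the crosses had to lie nearer to the mid-parent value than to either parent. Only the 6124 probes with different parents could pass, while the adjustment ran over all 41316. Their median parental difference was 0.62, which left a narrow range beside a median standard error of 0.09 over all tested probes. A low count of passing probes therefore does not show that additive expression was rare. Only 2 probes passed at 1% on the log2 scale (0.00484%), with 3 in the absence of MSLW fetus 2, and 740 had an unadjusted p under 0.05. They were those of SRPX2, a secreted protein, and IQSEC2, a guanine exchange factor, both X-linked. In SRPX2, LW ranged from 10.92 to 11.38 (median 11.20), MSLW up to 11.32 (median 11.11), LWMS from 8.56 to 9.20 (median 9.09) and MS from 8.56 to 9.32 (median 8.97). In IQSEC2, LW had a median of 11.31 and MSLW of 11.11, against 9.81 in LWMS and 9.61 in MS. Each cross thus overlapped with the breed of its sow and not with the other breed, and only the mean of the crosses was intermediate (deviations of 0.02 and -0.05). As X-linked genes of male fetuses came from the sow, X-linked probes in this class do not bear on the additive expectation.

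With the arithmetic mid-parent value, 4 probes passed (0.00968%). RPS4X, an X-linked ribosomal protein gene, also had crosses that overlapped with the breed of the sow, with medians of 16.34 in LW, 16.35 in MSLW, 15.61 in LWMS and 15.47 in MS. KIT, the receptor of stem cell factor and a coat colour gene in pigs, was intermediate in each cross. LW ranged from 12.66 to 13.00 (median 12.85) and MS from 10.23 to 10.70 (median 10.45), while LWMS ranged from 11.89 to 12.50 (median 12.04) and MSLW from 11.68 to 12.44 (median 11.88). The KIT groups of the crosses overlapped with each other and with neither parent. KIT passed with 2 probes of identical sequence, and the remaining probe, without a symbol, was also one of the 29 above the log2 mid-parent value.

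Dominant expression, with different parents, a deviation from the mid-parent value and no place outside the parental range, took in all 29 probes (0.0702%), 21 toward LW (0.0508%) and 8 toward MS (0.0194%). The class is defined by the log2 deviation described above, and no probe entered it by the arithmetic mid-parent value.

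The 6124 probes with different parents, 2980 with MS higher (7.21%) and 3144 with LW higher (7.61%), also gave the position of the crosses between the parents. On the linear scale, with 0 for LW and 1 for MS, the median position was 0.54 (quartiles 0.44 and 0.65). On that scale the crosses were nearer MS than LW in 60.9% of these probes, with MS higher (61.0%) and with LW higher (60.9%) alike. The log2 scale gave 57.7% in all, but 76.0% of probes with MS higher and 40.4% of those with LW higher. Probes with wider parental differences had larger log2 deviations. The median was 0.02 for the 2184 probes with a difference under 0.5, 0.04 for 2560 probes from 0.5 to 1, 0.11 for 1070 from 1 to 2, 0.32 for 221 from 2 to 3, and 0.84 for 89 above 3. Against the arithmetic mid-parent value the medians were 0.01, -0.00, -0.04, -0.13 and -0.11 in the same order. Probes are not independent of each other, and no test was made on these shares.

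A breed score was built from probes that differed by more than 1 (log2) between purebred MS and LW fetuses of day 110, at an adjusted p under 1%. Those fetuses were not part of the day-90 comparison. The score is the mean of 933 probes higher in MS minus the mean of 1491 higher in LW. At day 90 it ranged from -1.54 to -1.29 in LW (median -1.41) and from 0.20 to 0.59 in MS (median 0.40), with LWMS between -0.74 and -0.40 and MSLW between -0.60 and -0.37. The crosses overlapped with each other and with neither parent. Their mean exceeded the mid-parent score by 0.03, against a parental difference of 1.81, and was above it on 5 of 8 slides.

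Probes seen in a single breed describe the crosses without a measurable second parent. There were 61 that were well above background on at least 7 of 8 arrays of one breed and on none of the other, 47 bright in LW and 14 in MS. Over these, the crosses had a median of 51.9% of the bright parent. The interval held 50% for 51 probes, was below it for 5 and above it for 5, and 8 of the 61 were among the 29 described. The crosses were well above background on all 16 arrays in only 5 of the 61 probes, with a median of 52.0% and an interval that held 50% for 3. For the others the percentage rests in part on values not well above background. CCBE1, a secreted protein needed for lymphatic vessel growth, was the brightest of the named ones. It ranged from 8.24 to 8.83 in MS (median 8.40), was well above background on no LW array and was at least 30.0-fold higher in MS. MSLW ranged from 6.71 to 7.38 (median 7.07), and LWMS had a median of 7.05 but a lowest value of 1.66 in fetus 4, which was within the LW range of 1.61 to 3.08. The deviation with the measured LW values was 1.37 ± 0.34 (adjusted p = 0.21 in limma), and without the slide of that fetus 1.69 (adjusted p = 4.74e-09). That slide was singled out for its low value, and both deviations rest on LW values not well above background. With LW at the detection limit and all slides the deviation was 0.69. Against the arithmetic mid-parent value, with the measured values of all slides, it was -0.78 (interval -1.63 to 0.07). The difference crosses minus MS was -1.77 (log2, interval -2.62 to -0.91), with LWMS fetus 4 included. PCDH15, a cadherin of sensory hair cells, was at least 2.55-fold higher in MS, with crosses at 51.8% of MS.

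Of 10 genes chosen from the text of the study, DLK1 included, none was called. The other deviations were 0.16 for PCK2, the mitochondrial enzyme that makes phosphoenolpyruvate, -0.03 for LDHA (lactate dehydrogenase), 0.06 for PGK1 and 0.07 for PYGM (glycolysis and glycogen breakdown) and 0.31 for SORD (sorbitol dehydrogenase, adjusted p = 0.749 in limma). They were 0.05 for the transcription factor CREM, -0.00 for IGF2, a fetal growth factor, -0.10 for MAGEL2, an imprinted gene, and -0.05 for MYH3, the embryonic myosin heavy chain. In MAGEL2 and PGK1 the reciprocal crosses differed from each other. For MAGEL2, LWMS ranged from 8.39 to 9.25 (median 8.59) beside LW with 8.44 to 9.32 (median 8.95), and MSLW ranged from 9.97 to 10.34 (median 10.21) beside MS with 9.92 to 10.38 (median 10.12). Each cross overlapped with the breed of its boar and not with the other, and MSLW minus LWMS was 1.54 (adjusted p = 2.25e-11 in limma). For PGK1, which is X-linked, this difference was 0.40 (adjusted p = 6.13e-06 in limma). Each PGK1 cross overlapped with the breed of its sow and not with the other, like those of SRPX2, IQSEC2 and RPS4X. PGK1 ranged from 14.92 to 15.16 in LW (median 15.06), from 15.09 to 15.35 in MSLW (median 15.17), from 14.64 to 14.90 in LWMS (median 14.83) and from 14.70 to 14.91 in MS (median 14.83).

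Gene lists were described by the main probe of each gene, the brightest over the 32 arrays, against a median deviation of 0.01 and 55.3% above 0 over all tested probes. In 21 pathway lists with 523 genes none was called, beside 0.0702% of all probes, and the list medians ran from -0.05 to 0.13. The lists of oxidative metabolism stood mostly above 0. Of 76 respiratory chain subunits encoded in the nucleus, 73 were above the mid-parent value (median 0.08, from -0.21 to 0.26). All 24 enzymes of fatty acid oxidation and the citric acid cycle were above it (median 0.10, from 0.01 to 0.18). None of these genes passed the threshold, and the smallest adjusted p was 0.593 (limma).

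Examples from the respiratory chain were NDUFA6 of complex I (0.22 ± 0.07, SE), UQCRC1 of complex III (0.15 ± 0.05), cytochrome c, encoded by CYCS (0.17 ± 0.08), and the muscle form of a complex IV subunit, COX7A1 (0.23 ± 0.09). COX4I2 was the lowest (-0.21 ± 0.24). Among the enzymes, malate dehydrogenase MDH2 was at 0.18 ± 0.11, ECI1, which prepares unsaturated fatty acids for oxidation, at 0.18 ± 0.08, and ACADVL, which starts the oxidation of very long chains, at 0.16 ± 0.07. Both list medians were above 0 on all 8 slides, from 0.02 to 0.11 for the respiratory chain and from 0.02 to 0.17 for the enzymes, as were those of glycolysis and of the Y-linked genes. The median of all tested probes ran from -0.01 to 0.09 over the slides. On slide 2, which held MSLW fetus 2, it was 0.09, close to the 0.09 of the enzymes and the 0.11 of the respiratory chain. Without MSLW fetus 2 the medians were 0.07 (71 of 76 above) and 0.08 (22 of 24 above). At day 110 they were 0.04 (57 of 76) and 0.01 (14 of 24). Genes of a list are measured on the same fetuses and are not independent, so the counts are a description. The summed level of the 7 muscle fibre markers had group medians between 21.12 and 21.18, and its part in these shifts was not tested.

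**Figure D4:**
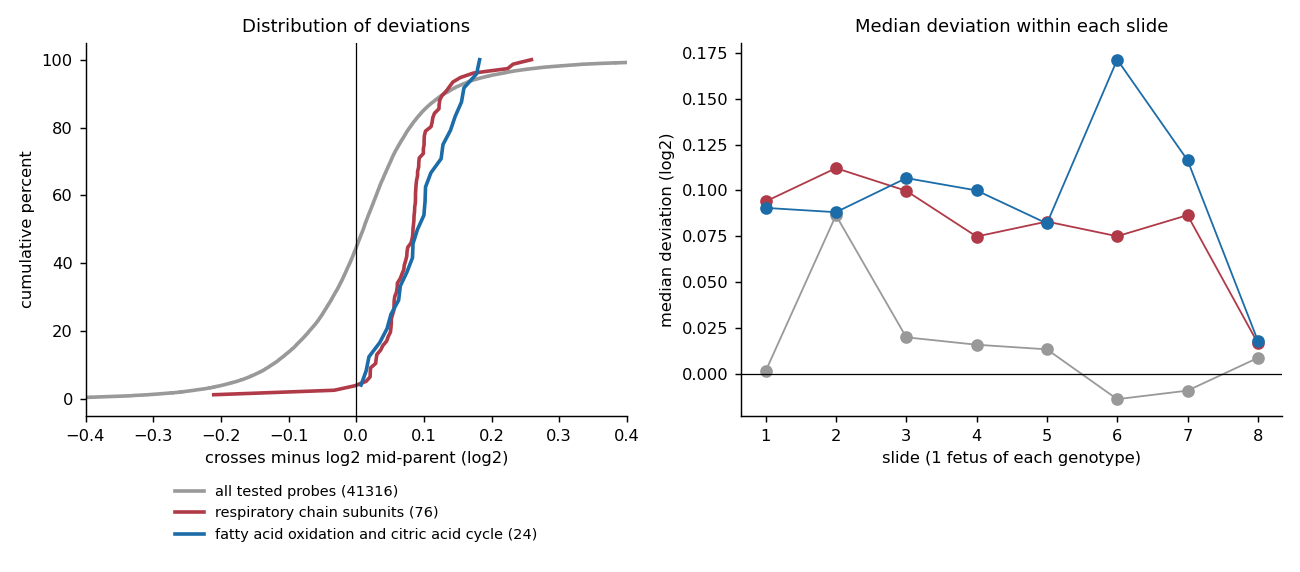
Left, cumulative percent (y axis) of the deviation from the log2 mid-parent value (x axis, log2) for all 41316 tested probes, 76 respiratory chain subunits and 24 enzymes of fatty acid oxidation and the citric acid cycle. Right, median deviation (y axis, log2) within each of the 8 slides (x axis), each of which held 1 fetus of each genotype. Both lists lie to the right of all probes on the left, and above 0 on every slide on the right, with the lowest value on slide 8 (0.02 for both) and all probes nearly level with them on slide 2.

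In glycolysis and glycogen metabolism, 19 of 22 genes were above the mid-parent value (median 0.06). PGM1, which interconverts glucose phosphates, had the largest deviation of this list (1.05 ± 0.23, adjusted p = 0.08 in limma) and was 3.41 higher in MS than in LW. The mitochondrially encoded genes had 12 of 14 above 0 with a median of 0.02. Lists of translation and protein turnover had medians close to that of all probes but larger shares above 0, with 53 of 75 ribosomal proteins (median 0.01), 30 of 36 proteasome subunits (0.03) and 14 of 16 heat shock proteins (0.03) above 0. Medians were also close to 0 for contractile proteins (11 of 20 above 0, 0.00), cell division genes (15 of 22, 0.02) and myogenic regulators (7 of 15, -0.00), among which MYF5 was at -0.32 ± 0.12 (adjusted p = 0.894).

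Antigen presentation had a list median of 0.13, with 21 of 28 genes above 0 and 13 of 28 higher in MS than in LW at 1%, against 7.21% of all probes. The list includes SLA, SLA2, SLAMF6, SLAMF9 and SLAIN2, whose symbols match those of the swine leukocyte antigens without belonging to them. Without these 5, which were left out after their values were seen, 19 of 23 genes were above 0 (median 0.14). SLA-DOA had the largest deviation (0.39 ± 0.18), and the list median was 0.00 at day 110. Of 11 targets of the stress factor ATF4, 10 were above 0 (median 0.12), such as the serine synthesis enzyme PHGDH (0.25 ± 0.09, adjusted p = 0.885). Glucocorticoid-responsive genes had 11 of 12 above 0 and a median of 0.10, which was -0.09 at day 110. Antioxidant and glutathione enzymes had 20 of 26 above 0 (0.05), genes of fat synthesis and storage 13 of 19 (0.07), immediate early genes 10 of 18 (0.04), and the 3 Y-linked genes had a median of 0.08. Besides the myogenic regulators, pathway lists with more genes below 0 were imprinted genes (17 of 25, median -0.05, with DLK1 the lowest), collagen chains (19 of 29, -0.02), the IGF system (8 of 13, -0.03) and interferon-stimulated genes (14 of 26, -0.01). For the imprinted genes only LWMS was low. Their mean level was 11.14 in LWMS and 11.34 in MSLW, without overlap, beside 11.33 in LW and 11.25 in MS. None of the 42 tested markers in 8 cell type lists was called. The medians of these lists ran from -0.09 for cartilage and bone cells to 0.10 for endothelial cells, and fewer cells of a type and less RNA per cell cannot be told apart in bulk muscle.

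The same contrast at day 110 was taken from a fit of all 61 arrays, whose variances also draw on the day-90 arrays. It gave 32 probes (0.0775%), of which 31 were above the mid-parent value, in other fetuses (9 LW, 7 MS, 8 LWMS and 5 MSLW). In that fit the day-90 contrast gave 22 probes, all above, in place of the 29 of the day-90 fit. Of the 29 probes of day 90, 26 had a positive deviation at day 110 and 13 passed 1% there. Their median deviation at day 110 was 0.80, and -0.07 to 3.37 was the range. The direction of the breed difference was the same at both ages in 28. MTFP1 deviated by 3.37 at day 110, MOS by 1.32 and MMRN2 by 1.24. ENPEP deviated by -0.04 and -0.07 at day 110 on its called probes, where the breed difference was 0.60 and 0.55 in place of 3.23 and 2.79. PARVB deviated by 0.09 and 0.18 at day 110, with breed differences of -0.96 and -0.94. The change in deviation between the ages was called in 1 of the 41316 probes (0.00242%) and in none of the 29, of which 7 had an unadjusted p under 0.05 (limma). The probe called, without a symbol, had a deviation of -0.06 at day 90 and 1.60 at day 110.

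**Figure D5:**
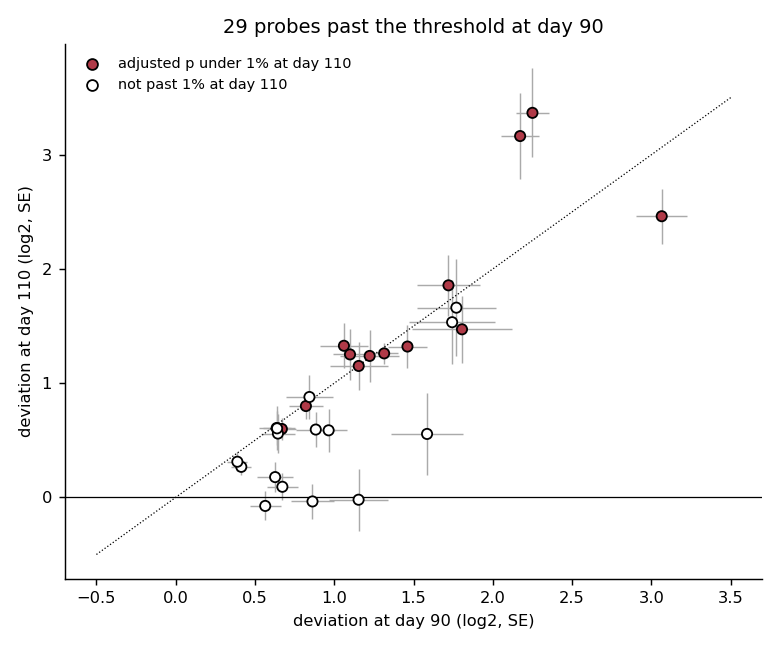
Deviation from the log2 mid-parent value at day 110 (y axis) against day 90 (x axis) for the 29 probes past 1% at day 90, with standard errors and the line of equality (dotted). Filled points passed 1% at day 110 as well. Of the 29 points, 26 are above 0 at day 110.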

How the data were processed

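Per the labels and methods, Cy3-labelled RNA from 1 fetus was hybridized per porcine oligonucleotide array. The authors deposited the scanner intensity of every spot (background-corrected by Agilent Feature Extraction 10.10.1.1, not normalized between arrays) and a table of log2 values that the authors had quantile normalized over 61 arrays. The submitters' processing notes also name limma. The deposited log2 values, matched to 44361 probes by row number of the scanner file (r of 0.986 to 0.992 per array), served as an alternative.

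Controls were left out, spots marked non-uniform (4 to 802 per day-90 array) were set to missing, and quantile normalization of the intensity over the 61 arrays was followed by log2 transformation. No more than 2 spots per array were saturated. Groups of the 32 day-90 arrays were fitted with limma 3.58.1 in R 4.3.3, with two-sided moderated tests and Benjamini-Hochberg adjustment over all tested probes at 1%. Contrasts at day 110 and the change between the ages came from the same kind of fit on all 61 arrays. Being out of range required both parental comparisons to pass, and intermediate expression was a pair of one-sided tests. The scripts were tested on simulated data. The number of arrays limits the precision. A breed in which a probe was well above background on no array has only a bound, set per array at the lowest signal well above background or the probe's own value, whichever was higher. The sow, a random effect in the methods, is not in the labels and was left out.

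Symbols came from the array's names, from RefSeq accessions and gene IDs (assembly Sscrofa11.1), from probes of identical sequence and, for 285 probes, from the study's lists. In all, 23451 tested probes had a symbol, for 10807 genes. No genome was used, so positions are not given. Named genes were, per direction, the 10 with the largest called deviation or, where fewer passed, all that passed and those with the lowest p up to 5, the leading genes of the other classes, genes in the study's text and members of the lists. Other genes described, such as MARC2, DYNLL2, BCAS2 and the list examples, were named after their values were seen. The members and lists were chosen with earlier results of these data known. Alternatives changed the signal, background correction (normexp, offset 50), normalization, filter, marked spots, slide, samples, scale and threshold.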

Additional observations from a re-analysis of the deposited data

Results flagged for a closer look

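Among 136 groups of 8 fetuses (34 probes of named genes, 4 genotypes at day 90), 15 held a fetus that stood apart by Dixon's criterion at 95%, where chance flags about 1 in 20 groups. Values are normalized log2 signals, and no cause was tested. TMOD3 was high in LW fetus 6 (9.52) and MSLW fetus 4 (8.20). MMRN2 was high in MS fetus 6 (6.69) and low in MSLW fetus 6 (6.76, with the next at 9.28). FGG was high in MS fetus 8 (2.65) and in MSLW fetus 2 (4.86), the fetus that stands apart on the second principal component. CCBE1 was low in LWMS fetus 4 (1.66, with the next at 6.39), and KIT was high in the same fetus (12.50). NFE2 was high in LW fetus 8 (4.65), PCK2 in LW fetus 6 (8.41) and SORD in LW fetus 8 (7.06) and MS fetus 6 (7.03). LDHA was low in LW fetus 3 (14.45), SRPX2 in LWMS fetus 7 (8.56) and RAB3A in MS fetus 3 (4.90).

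The deviation from the mid-parent value changed between the ages in 1 probe without a symbol, from -0.06 at day 90 to 1.60 at day 110, a difference of -1.66 ± 0.27 (SE, adjusted p = 0.00266 in limma).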

How the results depend on the processing

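The labels number no replicates, and the slide, which held 1 fetus of each genotype, was the only block (27 probes off the mid-parent value). The count of probes off the mid-parent value, 29, and the equal count of dominant probes fell to 18 with the median signal, to 18 with the deposited values, to 14 with normexp and to 9 with probes well above background on all 32 arrays. Both counts were 0 with the arithmetic mid-parent value, and 1 (FGG) with that value and without MSLW fetus 2. Leaving out slides 1 at a time gave 19 to 27, and leaving out MSLW fetus 2 gave 34. Intermediate probes, 2 in number, were 4 with the median signal, 1 with the slide as a block, 1 with all 61 arrays, 6 at 5%, 4 with the arithmetic scale and 1 to 4 without a slide. The breed difference was called in 9565 probes at 5% and in 4855 to 5647 without a slide, and out-of-range expression in 0 under every alternative run. Of the 29 probes, 8 kept the call under each alternative in which they were tested, other than the arithmetic mid-parent value, but 6 of these 8 were not tested when all 32 arrays had to be well above background. All 29 kept a positive deviation where tested. Against the arithmetic mid-parent value, 7 turned negative, with and without MSLW fetus 2. These were IYD (-0.120 and -0.0893 on the first probe, -0.0671 and -0.0687 on the second), ENPEP on its brighter probe (-0.0257 and -0.0277), MOS (-0.0587 and -0.0817), MMRN2 on its second probe (-0.000505 and -0.000824) and unnamed probes (-0.139 and -0.136, -0.0235 and -0.0296). By construction, that reference lies above the log2 mid-parent value wherever the parents differ. The cause of the other changes was not tested. The collagen list median changed sign under scaling to the 75th percentile. Dim probes, with a breed at the detection limit, have only bounds.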
